A study of Mus musculus with 9 samples.

Results

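The 10 genes described here are read as epithelial or mesenchymal markers and were followed in mouse embryonic fibroblasts (MEFs) of 3 Rb genotypes: the keratins Krt5, Krt7, Krt8, Krt14, Krt18 and Krt19, the cadherins Cdh1 and Cdh2, the adhesion molecule gene Epcam, and Vim. They were taken by symbol, and each of these 10 of the 19938 measured genes had a single probe set, so no choice between probe sets was needed. MEFs are a mixed primary culture of mainly connective tissue cells grown from embryos. The groups were WT (Rb +/+), ΔG (Rb ∆G/∆G, a targeted Rb allele mutated at its common E2F interaction site) and null (Rb -/-), with 3 arrays each. Serum deprivation is common to all 9 arrays: the cells of every group were plated at low density in 15 cm dishes and got 0.1% serum from 24 h on. The series text describes the MEFs as littermates across genotypes. Neither the age of the embryos nor whether the 3 arrays of a genotype came from 3 embryos is stated, so a p-value here reflects how far these arrays of a group scatter, which may in part be technical.

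Keratins are the intermediate filament proteins of epithelial cells. A type I keratin (Krt14, Krt18 and Krt19 among the 10 genes) pairs with a type II keratin (Krt5, Krt7 and Krt8): Krt8 with Krt18 in simple epithelia, Krt5 with Krt14 in the basal layer of stratified epithelia. Cdh1 encodes E-cadherin and Epcam a further surface adhesion protein of epithelia. Cdh2 encodes N-cadherin and Vim the type III filament protein vimentin, both of which fibroblasts make in quantity. Loss of E-cadherin and gain of N-cadherin and vimentin are the textbook markers of an epithelial cell turning mesenchymal, and RB is known mainly as a repressor of E2F target genes.

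Values are log2 RMA signals, in which a difference of 1 is a doubling. The array medians lay between 6.64 and 6.69. RMA gives a number to every probe set whether or not its RNA is present, and no detection calls were used: the Y-linked Eif2s3y still read 3.52 to 3.94 on the 4 arrays without a Y-chromosome signal. The fibroblast genes Col1a1 (12.05 to 12.77) and Vim (11.48 to 12.56) lay far above the medians on all 9 arrays. Levels are compared between arrays for 1 gene, not between genes. Rb1 itself read 8.93, 9.17 and 9.16 in WT, 9.53, 9.76 and 9.54 in ΔG and 8.18, 8.58 and 8.19 in null, which is 1.70-fold lower in null than in WT (limma adjusted p = 0.0011), while the difference of 0.53 between ΔG and WT was not called (adjusted p = 0.075). Pairs of arrays within a genotype correlated at 0.993 to 0.997 over all genes. ΔG replicate 3 lay nearer to the null arrays (r = 0.991 to 0.992) than ΔG replicates 1 and 2 did (0.984 to 0.986). WT replicates 1 and 2 and all ΔG arrays had the Y-linked signal, whereas WT replicate 3 and all null arrays lacked it and had high Xist (11.42 to 11.98, against 4.24 to 4.45). Sex pattern and genotype therefore cannot be told apart between ΔG and null, and the comparison of null with WT is given below also against the 1 WT array of the same pattern. That fit keeps all 9 arrays for the spread and assumes that the lone WT array varies like the other groups. It and the fit with a Y-linked covariate have less precision than the fit over genotypes, so a call lost there with a change of similar size does not show a smaller change. "Called" means a Benjamini-Hochberg adjusted p below 0.05 over all 19938 genes in limma.

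Across the 10 genes, loss of Rb went with a rise of Krt19 and a fall of Cdh2. The other 7 epithelial genes and Vim were not called in any comparison. Against WT, 2 of 10 genes were called in null, 1 higher and 1 lower, and those 2 were also the ones with an unadjusted p below 0.05. Over all genes 18.4% were called in that comparison, 8.38% higher and 10.1% lower, so the share among the 10 genes is near the background. In ΔG against WT, none of the 10 was called by limma and none had an unadjusted p below 0.05, where 0.813% of all genes were called. Over all genes, 30.0% had an unadjusted limma p below 0.05 in null and 11.8% in ΔG, each against WT. The unadjusted counts here and for the lists below are to be read beside these shares. Between ΔG and null 1 of 10 was called, against 8.71% of all genes. The median change of the 10 genes was -0.07 in ΔG and -0.02 in null, and that of all genes -0.018 and -0.01. Both comparisons use the same 3 WT arrays, and leaving out ΔG replicate 3 left the count in ΔG at 0.

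**Figure D1:**
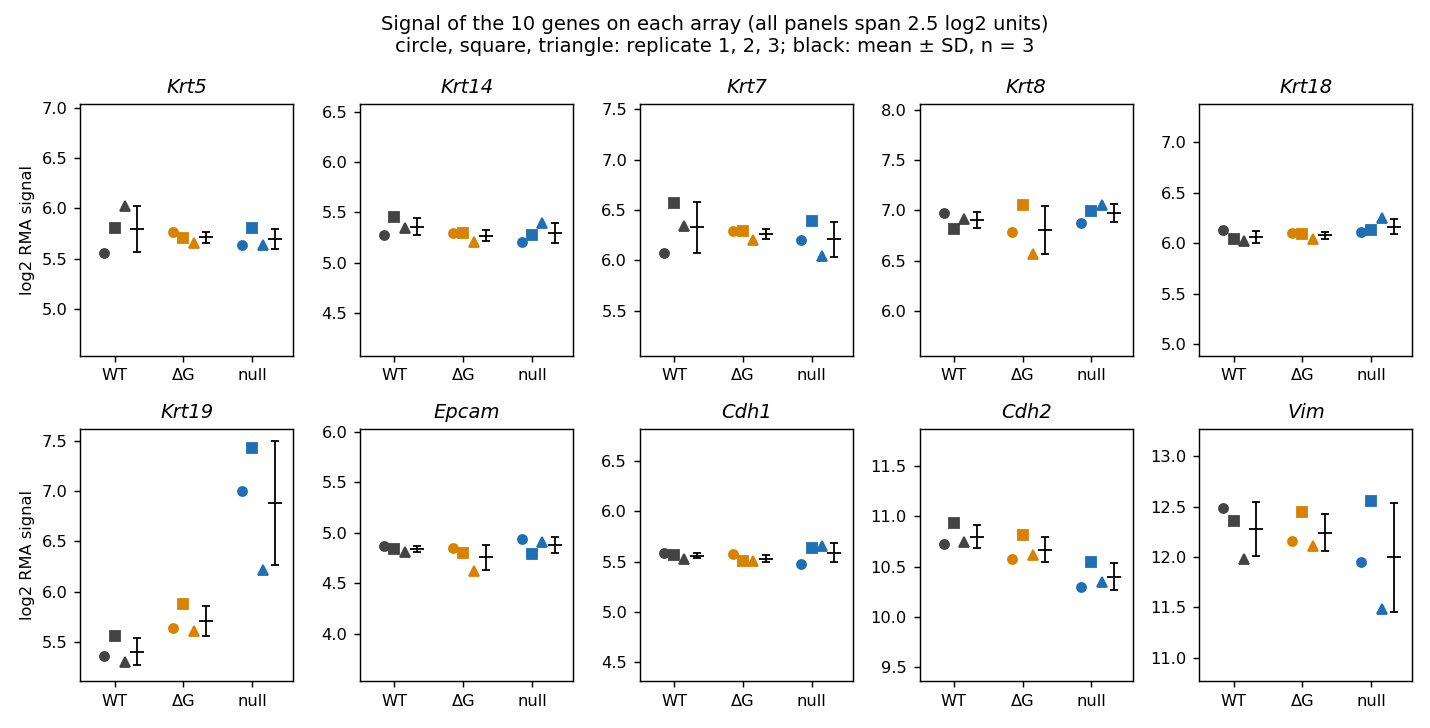
Log2 RMA signal of each of the 10 genes on each of the 9 arrays, by genotype, with the replicate shown by the symbol and the group mean ± SD in black (n = 3). The null arrays of Krt19 (6.22 to 7.43) lie above all others, those of Cdh2 (10.30 to 10.55) lie below all others, and the remaining genes overlap between WT and null.

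Krt19, a type I keratin of simple and ductal epithelia, read 5.36, 5.56 and 5.30 on the WT arrays, 5.64, 5.88 and 5.61 on the ΔG arrays and 7.0, 7.43 and 6.22 on the null arrays. Every null array lay above every ΔG array, and every ΔG array above every WT array. The null arrays were spread over more than 1 log2 unit, with replicate 3 the lowest. Krt19 rose in null by 1.48 ± 0.23 (SE), or 2.78-fold with a 95% interval of 1.96 to 3.95 (n = 3 per group; adjusted p = 0.0013). ΔG was lower than null by a factor of 2.25 (log2 difference -1.17, 95% interval -1.68 to -0.67, adjusted p = 0.010). The difference between ΔG and WT was 0.30 (95% interval -0.20 to 0.81, adjusted p = 0.68) and was not called although the groups did not overlap; 16.5% of all genes did not overlap between these groups. Krt19 was called in null against WT in 18 of 18 alternative fits, with changes from 1.20 without null replicate 2 to 1.81 without null replicate 3. With a Y-linked covariate in the fit, its difference between ΔG and null was no longer called (-1.37, adjusted p = 0.23).

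The type II keratin Krt8, which can pair with Krt19, was not called. It read 6.97, 6.82 and 6.92 in WT, 6.79, 7.05 and 6.57 in ΔG and 6.88, 6.99 and 7.05 in null. The 3 groups overlapped, and the change in null was 0.07 (95% interval -0.17 to 0.31, adjusted p = 0.74), an interval whose upper bound lies below the lower bound for Krt19. Krt18, the usual type I partner of Krt8, read 6.13, 6.04 and 6.02 in WT, 6.10, 6.09 and 6.04 in ΔG and 6.11, 6.13 and 6.25 in null. It had the smallest within-group SD of the 10 genes (0.0583, against a median gene of 0.107) and changed by 0.10 in null (95% interval -0.05 to 0.25). Its null arrays all lay above its ΔG arrays, but the difference was not called (-0.09, adjusted p = 0.52); 27.0% of all genes had ΔG and null groups that did not overlap, in either direction. Krt7, a type II keratin of ducts and other simple epithelia, read 6.07, 6.57 and 6.34 in WT, 6.29, 6.29 and 6.2 in ΔG and 6.2, 6.39 and 6.04 in null, and here too the groups overlapped.

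Neither gene of the basal pair was called. Krt5 read 5.56, 5.81 and 6.02 in WT, 5.77, 5.71 and 5.66 in ΔG and 5.64, 5.81 and 5.64 in null. Krt14 read 5.28, 5.45 and 5.35 in WT, 5.30, 5.30 and 5.21 in ΔG and 5.21, 5.28 and 5.40 in null. For both genes all groups overlapped, and the highest of the 9 values was that of a WT array.

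Neither Cdh1 nor Epcam was called. Cdh1 read 5.58, 5.56 and 5.53 in WT, 5.57, 5.51 and 5.51 in ΔG and 5.48, 5.63 and 5.65 in null. Its range over the 9 arrays, 0.17, was the smallest of the 10 genes, and only 2.98% of all genes had a smaller one. Epcam read 4.87, 4.84 and 4.81 in WT, 4.85, 4.80 and 4.62 in ΔG and 4.94, 4.79 and 4.91 in null. Its lowest array was ΔG replicate 3, and no group stood apart. Cdh1, Epcam and Krt14 had means in the dimmest 33.3% of genes, where background makes up more of the signal. Over the 7 epithelial genes other than Krt19, changes in null against WT lay between -0.11 and 0.10, with 95% intervals that stayed within -0.38 and 0.31 and adjusted p from 0.40 to 0.81. In ΔG against WT they lay between -0.10 and 0.01, with intervals within -0.34 and 0.21 and adjusted p from 0.74 to 0.98.

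**Figure D2:**
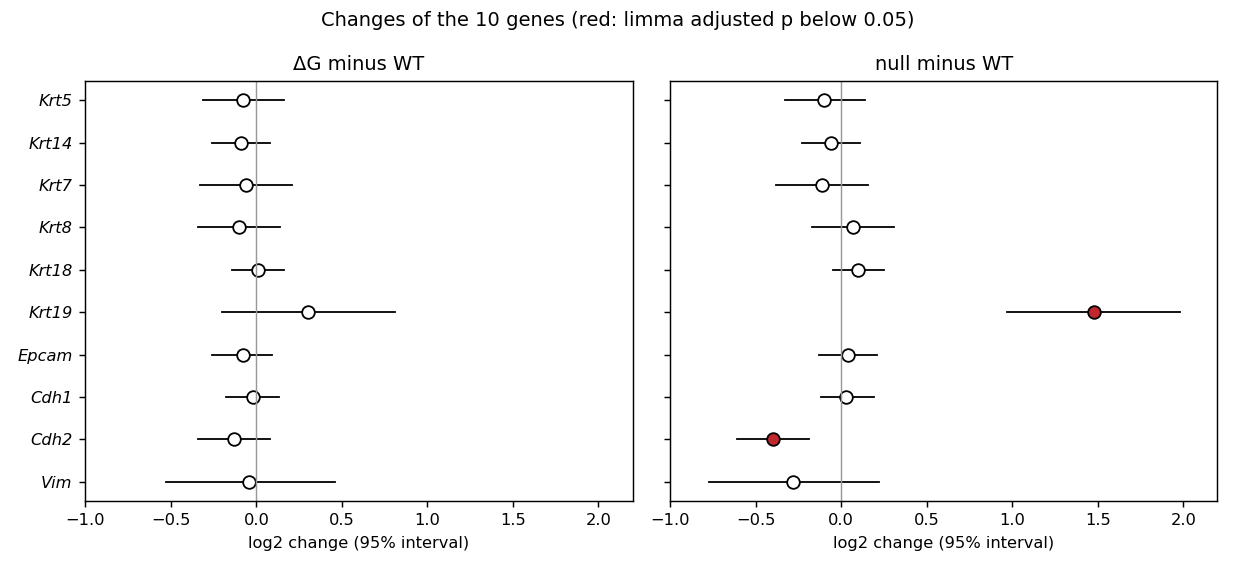
Log2 change of each of the 10 genes in ΔG minus WT and in null minus WT, with 95% intervals from the fit over all 19938 genes. Red points have a limma adjusted p below 0.05. Krt19 (1.48) and Cdh2 (-0.40) are red in null minus WT, and no point is red in ΔG minus WT.

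The 46 other measured genes named Krt and a number gave 3 calls in null against WT, or 6.52%, and none in ΔG by limma, where 1 had an unadjusted p below 0.05. Their median change in null was 0.00 and their changes ran from -0.63 to 0.31. Krt24, a type I keratin, rose (0.31, adjusted p = 0.0094), and its null arrays (5.27, 5.33 and 5.21) lay above all WT arrays (4.94, 5.04 and 4.88). Krt20, a keratin of gut and urothelium, fell (-0.63, adjusted p = 0.010), and so did the hair keratin Krt35 (-0.27, adjusted p = 0.040). Against the WT array of the same sex pattern Krt20 changed by -0.59 (adjusted p = 0.11) and Krt35 by -0.31 (adjusted p = 0.13), neither called; Krt35 lost its call in 7 of 17 alternative fits. Krt24, Krt20 and Krt35 all lie among the dimmest 33.3% of genes. Krt79 was not called (-0.22 in ΔG, adjusted p = 0.26). The 3 other keratins with the highest mean signal, the hair keratins Krt33b, Krt82 and Krt87, were not called and changed by 0.15, -0.08 and 0.05 in null.

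Krt19 lies within the type I keratin gene cluster. In the gene order of RefSeq's mouse assembly GRCm38.p6, the 5 measured genes on one side of it are Krt32, Krt35, Krt36, Krt13 and Krt15, and the 5 on the other Krt9, Krt14, Krt16, Krt17 and Krt42. These neighbours were looked up after the change of Krt19 had been seen and are given as a description. Their changes in null against WT ran from -0.27 to 0.11, all below that of Krt19.

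**Figure D3:**
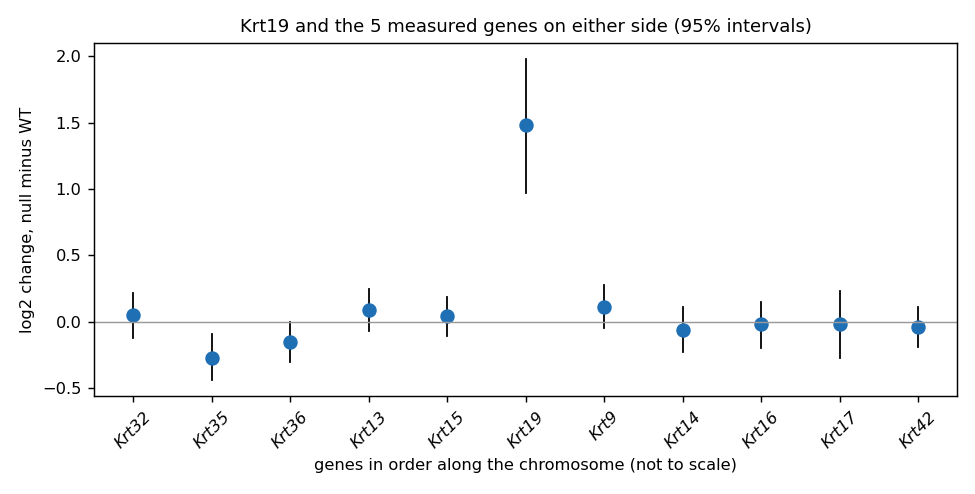
Log2 change in null minus WT, with 95% intervals, of Krt19 and of the 5 measured genes on either side of it in chromosomal order (evenly spaced, not to scale). Krt19 stands at 1.48, and its 10 neighbours lie between -0.27 and 0.11.

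Cdh2, the N-cadherin gene, read 10.72, 10.93 and 10.74 in WT, 10.58, 10.81 and 10.61 in ΔG and 10.30, 10.55 and 10.35 in null. All null arrays lay below all WT and all ΔG arrays, while ΔG and WT overlapped. Over all genes, 34.7% did not overlap between null and WT. In null it fell by 0.40 on the log2 scale (95% interval -0.61 to -0.19), or 1.32-fold (n = 3 per group; adjusted p = 0.013). ΔG changed by -0.13 against WT (95% interval -0.34 to 0.08, adjusted p = 0.66), and the difference of 0.27 between ΔG and null was not called (95% interval 0.06 to 0.47, adjusted p = 0.12). The fall in null was called in 14 of 18 alternative fits: against the WT array of the same sex pattern it was -0.34 (adjusted p = 0.15), with the Y-linked covariate -0.32 (0.22), without WT replicate 2 -0.33 (0.059) and without null replicate 1 -0.35 (0.063).

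Other members of the family were also called. Of 21 other classical and related cadherins, 9 were called in null, 7 lower and 2 higher (42.9%, against 18.4% of all genes), with a median change of -0.12 over the 21 genes. With the Y-linked covariate, and without null replicate 3, 5 of the 21 were called. None was called in ΔG by limma, where 5 had an unadjusted p below 0.05 (against 11.8% of all genes).

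Cdh3, the P-cadherin gene, read 10.38, 10.35 and 10.22 in WT, 10.47, 10.23 and 10.24 in ΔG and 9.32, 9.27 and 9.37 in null. The null arrays lay well below both other groups, which overlapped: Cdh3 fell 2.00-fold in null (-1.0 ± 0.0826 SE, adjusted p = 2.5e-05) and changed by -0.01 in ΔG (95% interval -0.19 to 0.18). P-cadherin is counted among epithelial cadherins, and Cdh3 is also in the epithelial list below.

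Cdh4, the R-cadherin gene, read 8.17, 7.85 and 8.07 in WT, 7.51, 7.67 and 7.63 in ΔG and 6.77, 6.82 and 6.91 in null, so that the 3 genotypes formed 3 separate levels. It fell 2.29-fold in null (adjusted p = 1.5e-05), and the change of -0.43 in ΔG was not called (adjusted p = 0.057). Cdh8, a type II cadherin, read 8.64, 8.13 and 8.62 in WT, 8.04, 7.83 and 8.01 in ΔG and 6.83, 6.73 and 7.28 in null. It fell 2.86-fold in null (adjusted p = 0.00011), and its ΔG arrays also lay below its WT arrays without a call (-0.50, adjusted p = 0.22). Cdh26 fell 1.77-fold in null (adjusted p = 0.00026) and changed by -0.33 in ΔG (adjusted p = 0.20). Cdh3, Cdh4, Cdh8 and Cdh26 were called in null against WT in 18 of 18 alternative fits, and all were also higher in ΔG than in null (0.99, 0.77, 1.01 and 0.49, adjusted p = 0.00013, 0.00071, 0.0034 and 0.012). With the Y-linked covariate these 4 differences were 0.83, 0.85, 1.31 and 0.56 and not called (adjusted p = 0.059, 0.079, 0.10 and 0.27). That of Cdh26 was also not called without ΔG replicate 1 (0.43), ΔG replicate 2 (0.48) or null replicate 1 (0.47).

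Cdh11, a type II cadherin of mesenchyme, read 12.62, 12.63 and 12.27 in WT, 12.47, 12.71 and 12.34 in ΔG and 12.02, 12.11 and 11.83 in null. It fell in null by 0.52 on the log2 scale (adjusted p = 0.013), but 5 of 18 alternative fits lost the call, among them the WT array of the same sex pattern (-0.28, adjusted p = 0.29) and the Y-linked covariate (-0.24, adjusted p = 0.40); the others leave out WT replicate 1, WT replicate 2 or null replicate 3, with changes of -0.46 to -0.44. The following cadherins were picked after their values were seen. Cdh9 and Cdh10 fell in null (-0.54 and -0.51, adjusted p = 0.022 and 0.045), and Cdh12 and Cdh24 rose (0.32 and 0.54, adjusted p = 0.020 and 0.0013). With the Y-linked covariate, and without null replicate 3, only 5 of the 21 were called, Cdh3, Cdh4, Cdh8 and Cdh26 among them. Most of the calls of Cdh9, Cdh10, Cdh12 and Cdh24 were therefore lost in each of these fits. Cdh9 (4.42 to 5.31 over the 9 arrays) and Cdh12 (4.24 to 4.71) lie among the dimmest 33.3% of genes. Cdh6 had its ΔG arrays below and its null arrays above the WT arrays: it read 8.46, 8.49 and 8.11 in WT, 7.45, 7.69 and 7.86 in ΔG and 8.78, 8.57 and 9.13 in null. Neither change against WT was called (-0.68 in ΔG, adjusted p = 0.076, and 0.47 in null, adjusted p = 0.054), but ΔG was lower than null by a factor of 2.23 (adjusted p = 0.0014). Sex pattern and genotype cannot be told apart in this last comparison. Over all genes it gave 1737 calls, and 53 with the Y-linked covariate.

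**Figure D4:**
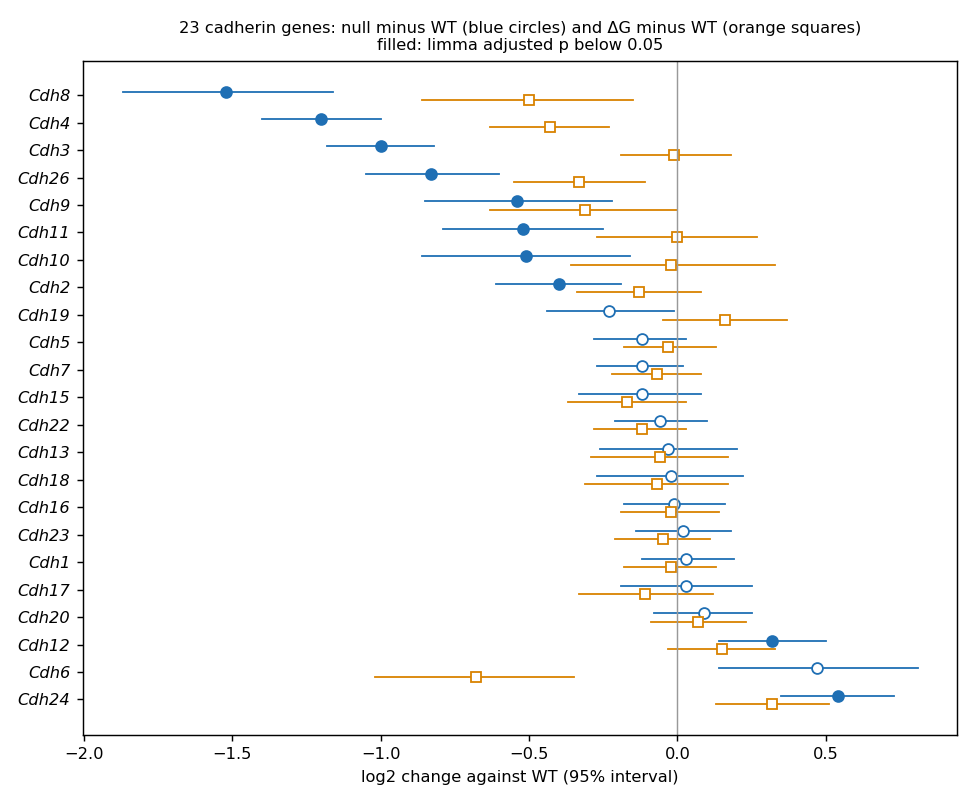
Log2 change against WT of 23 cadherin genes (Cdh1, Cdh2 and the 21 others) in null (blue circles) and ΔG (orange squares), with 95% intervals, ordered by the change in null; filled symbols have a limma adjusted p below 0.05. Cdh8, Cdh4 and Cdh3 are lowest in null (-1.52, -1.20 and -1.0), Cdh24 is highest (0.54), and no ΔG symbol is filled.

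Cadherins hold cells together through catenins, which link them to actin. Of 14 cadherin partners, 5 were called in null, 2 higher and 3 lower (35.7%), and none in ΔG by limma, where 1 had an unadjusted p below 0.05. The adhesion receptor Nectin2 and the α-catenin Ctnna2 fell (-0.65 and -0.76, adjusted p = 0.0010 and 0.0012). The δ-catenin Ctnnd2 and Nectin3 rose (0.84 and 0.29, adjusted p = 0.0025 and 0.023), the latter without a call in 7 of 18 alternative fits. The count fell to 2 with the Y-linked covariate and to 3 in several fits: against the WT array of the same sex pattern, and without WT replicate 1, 2 or 3 or null replicate 1 or 3. The core catenins, named here outside the rule for naming genes, were mostly not called: Ctnnb1 (β-catenin) changed by -0.05 and Ctnna1 by -0.10 in null, neither called, while Ctnnd1 (p120-catenin, which stabilises cadherins at the surface) fell by 0.29 (adjusted p = 0.031). Ctnnd1 was not among the genes called in the settings above where the count fell to 2 or 3.

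Vim read 12.49, 12.36 and 11.98 in WT, 12.16, 12.45 and 12.11 in ΔG and 11.95, 12.56 and 11.48 in null. The null group held both the highest and the lowest of the 9 arrays, and all groups overlapped. Its range over the arrays was 1.08, larger than that of 94.8% of genes, and its SD within groups 0.364, larger than that of 98.8%. The change was -0.28 in null (95% interval -0.77 to 0.22, adjusted p = 0.47) and -0.04 in ΔG (95% interval -0.53 to 0.46, adjusted p = 0.98). Vim was called in none of 18 alternative fits of either comparison against WT by limma, and its change in null moved from -0.56 without null replicate 2 (adjusted p = 0.059) to 0.06 with the Y-linked covariate. The mean of the 35 genes with a mean at least that of Vim was 12.72, 12.73 and 12.28 in WT, 12.50, 12.73 and 12.47 in ΔG and 12.24, 12.59 and 11.94 in null, lowest on null replicate 3 as for Vim. The part of this shift at the bright end in the values of Vim and Cdh2 was not tested beyond 1 setting. When quantile normalisation was repeated on the deposited values, which evens out the bright end, the change of Vim in null was -0.04, and that of Cdh2 was -0.29 and still called (adjusted p = 0.031).

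Of 18 other intermediate filament and linker genes, 3 were called in null, 2 higher and 1 lower (16.7%), and none in ΔG by limma, where 2 had an unadjusted p below 0.05. The nuclear lamin gene Lmnb1 rose by 0.88 (adjusted p = 0.00020) and was called in 18 of 18 alternative fits. Synm, a muscle and glial filament gene, rose (0.60, adjusted p = 0.035), and the muscle filament gene Des fell (-0.58, adjusted p = 0.046). Against the WT array of the same sex pattern Synm was 0.60 and Des -0.32, with the Y-linked covariate 0.58 and -0.22, none of them called. Both calls were also lost without WT replicate 1 (0.57 and -0.61), WT replicate 2 (0.62 and -0.41), null replicate 1 (0.64 and -0.59) or null replicate 2 (0.41 and -0.63), and in each of these settings the list had 1 call. Nes, the nestin gene, was not called (0.66 in ΔG, adjusted p = 0.25, and 0.47 in null, adjusted p = 0.18).

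Beyond the markers themselves, a list of 40 epithelial junction and regulator genes, 38 of them measured, gave 7 calls in null, 4 higher and 3 lower. That is 18.4%, the same share as among all genes, and the median change was 0.05; with the Y-linked covariate 4 were called. None was called in ΔG by limma, with 3 at an unadjusted p below 0.05. Itgb4, the integrin chain of hemidesmosomes, rose by 0.73 (adjusted p = 0.0012): all its null arrays (7.30 to 7.64) lay above the WT arrays (6.58 to 6.77). Grhl3, a transcription factor of surface ectoderm, and the membrane protease gene St14 rose (0.88 and 0.81, adjusted p = 0.0048 and 0.0061), as did the surface protein gene Cd24a (0.81, adjusted p = 0.022, lost in 5 of 18 alternative fits). The tight junction gene Cldn1 fell 2.32-fold (adjusted p = 0.0013), the protease inhibitor gene Spint2 fell (-0.57, adjusted p = 0.010) and Cdh3 fell as given above. Cldn3 was not called (-0.21, adjusted p = 0.053). With the Y-linked covariate, St14 (0.93, adjusted p = 0.053), Cd24a (1.1, 0.059), Grhl3 (0.68, 0.14) and Spint2 (-0.43, 0.21) lost their calls. The 4 calls of the list in that fit thus include a gene not called in the fit over genotypes. Against the WT array of the same sex pattern, Grhl3 (0.69, adjusted p = 0.10) and Spint2 (-0.48, adjusted p = 0.14) were not called.

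St14 and Cldn1 changed by 0.79 and -0.69 in ΔG without being called (adjusted p = 0.060 and 0.15). St14 read 6.98, 7.15 and 6.94 in WT, 7.83, 7.87 and 7.75 in ΔG and 7.66, 8.33 and 7.51 in null, so its ΔG arrays lay above all WT arrays. Regulators of the epithelial state, named outside the rule for naming genes, were not called: Esrp1, Esrp2 and Grhl2 changed by 0.02, 0.00 and -0.01 in null.

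Of 27 mesenchymal genes, 15 were called in null, all lower (55.6%, against 10.1% of all genes called lower), with a median change of -0.46. In ΔG none was called by limma, 1 had an unadjusted p below 0.05, and the median change was -0.06. Between ΔG and null, 8 were called, all higher in ΔG (29.6%, against 8.71% of all genes called in either direction). Dcn, which encodes the matrix proteoglycan decorin, read 12.08, 11.98 and 11.79 in WT, 11.85, 11.86 and 11.48 in ΔG and 10.64, 10.31 and 10.77 in null. It fell 2.6-fold (adjusted p = 6.6e-05) and was called in 18 of 18 alternative fits. The surface glycoprotein gene Thy1 fell by 0.72, the fibrillar collagen genes Col3a1, Col1a2 and Col1a1 by 0.59, 0.58 and 0.49, and the mesodermal transcription factor genes Twist2 and Twist1 by 0.51 and 0.46 (adjusted p = 0.0018, 0.0025, 0.0040, 0.0062, 0.0049 and 0.011); Cdh11 also belongs to this list.

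The count of 15 was lower in other fits: 2 against the WT array of the same sex pattern, 1 with the Y-linked covariate and 9 without WT replicate 2. Against the WT array of the same pattern, Col1a1, Col1a2 and Col3a1 changed by -0.30, -0.31 and -0.50 and Twist1 and Twist2 by -0.43 and -0.51, none called. The changes of Twist1, Twist2 and Col3a1 were thus close to those over all WT arrays, and those of Col1a1 and Col1a2 smaller. In null against WT, Thy1 was not called with the Y-linked covariate (-0.35, adjusted p = 0.066). Col1a1 and Col1a2, whose probe sets are among the brightest, also lost their calls there when quantile normalisation was repeated (-0.19 and -0.29, adjusted p = 0.19 and 0.052). Between ΔG and null, the calls of Dcn, Thy1, Twist2, Cdh11, Col1a1, Col1a2 and Col3a1 were lost with the Y-linked covariate. Their differences in that fit ran from 0.05 (Col1a2) to 0.87 (Dcn). Cdh11, Col1a1, Col1a2 and Col3a1 also lost this call when quantile normalisation was repeated (0.25, 0.12, 0.20 and 0.34). The transcription factor genes best known for repressing Cdh1 were looked up outside the rule for naming genes: in null, Snai1 changed by -0.02, Snai2 by 0.28, Zeb1 by 0.00 and Zeb2 by -0.23, none called (adjusted p = 0.94, 0.057, 0.98 and 0.068).

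**Figure D5:**
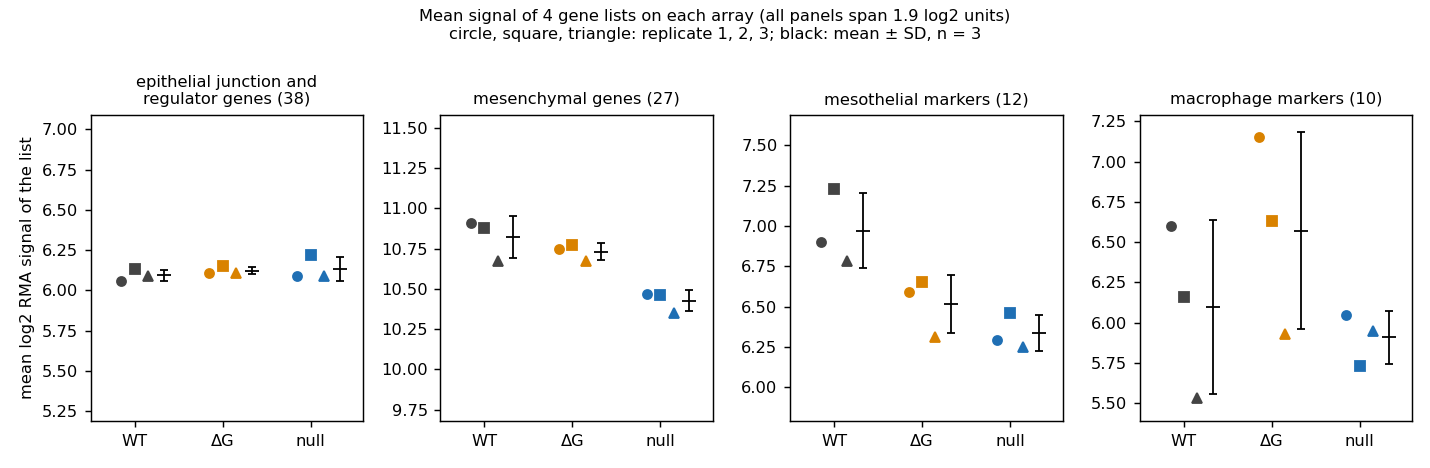
Mean log2 RMA signal of 4 gene lists on each array, by genotype, with the replicate shown by the symbol and the group mean ± SD in black (n = 3); all panels span 1.9 log2 units. The mesenchymal list is lower on all null arrays (10.35 to 10.47) than on all WT arrays (10.67 to 10.91), the epithelial list overlaps between the groups, the mesothelial list is lower in ΔG and null than in WT, and the macrophage list varies most within groups of the 4.

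Markers of other cell types that a MEF culture can hold were read beside these results; with bulk RNA, fewer cells of a type and less RNA per cell cannot be told apart. Krt7, Krt8, Krt18 and Krt19 are also made by mesothelium. Of 12 mesothelial markers, 6 were called in null, all lower, with a median change of -0.55, the opposite direction to Krt19. In ΔG 1 was called, lower (8.33%, against 0.813% of all genes called). There 7 had an unadjusted p below 0.05 (against 11.8% of all genes), and the median change was -0.50. The count of calls in ΔG was 0 to 2 when 1 array was left out, 0 with only the ΔG and WT arrays in the fit, and 3 with the Y-linked covariate. Their mean signal was 6.78 to 7.23 in WT, 6.31 to 6.65 in ΔG and 6.25 to 6.46 in null. Bnc1, a transcription factor of mesothelium and basal keratinocytes, read 6.85, 7.09 and 6.96 in WT, 6.57, 6.51 and 6.43 in ΔG and 5.33, 5.63 and 5.33 in null. It fell 2.90-fold in null (adjusted p = 8.5e-06), with -0.47 in ΔG (adjusted p = 0.056). Upk3b and Lrrn4 fell in null (-1.14 and -1.09, adjusted p = 0.0041 and 0.011); against the WT array of the same sex pattern they were lower without a call (-0.68 and -0.53, adjusted p = 0.12 and 0.29). The membrane protein gene Gpm6a fell in both (-1.46 in null, adjusted p = 0.00030, and -0.98 in ΔG, adjusted p = 0.036, the latter lost in 8 of 18 alternative fits). The mesothelial count in null was 2 against the WT array of the same sex pattern, 2 with the Y-linked covariate and 3 without null replicate 1. Msln and Wt1, 2 defining markers named outside the rule for naming genes, changed by 0.13 and -0.25 in null and were not called.

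Of 16 keratinocyte and basal epithelial markers, 15 were measured and 2 were called in null, both higher: the integrin gene Itga6 (0.72, adjusted p = 0.0043) and the desmosomal membrane protein gene Perp (0.68, adjusted p = 0.037). That is 13.3%, against 8.38% of all genes called higher. Perp was not called in 7 of 18 alternative fits, among them the WT array of the same sex pattern (0.45) and those without WT replicate 1 (0.47), WT replicate 2 (0.77), null replicate 1 (0.77) or null replicate 2 (0.45), where the list had 1 call. With the Y-linked covariate neither was called by limma, with Itga6 at 0.75 (adjusted p = 0.061) and Perp at 0.48 (adjusted p = 0.40). In ΔG none was called by limma, with 1 at an unadjusted p below 0.05. Dsc3 and Krt6b were not called (0.32 and -0.16), and Trp63, the defining regulator of these cells and named outside the rule, changed by -0.02. The mean of this list was 5.80 to 5.87 in WT, 5.79 to 5.94 in ΔG and 5.83 to 5.99 in null. Some of its keratins are also among the 46 counted above. Of 12 trophoblast markers 7 were measured and none was called by limma (1 at an unadjusted p below 0.05 in null, none in ΔG), with Plac1, Psg17, Elf5 and Ascl2 at 0.21, 0.21, -0.14 and 0.05 in null and list means of 4.89 to 5.0 in WT and 4.97 to 5.05 in null. Of 10 endothelial markers 1 was called in null, Emcn (-0.81, adjusted p = 0.049, called in 4 of 17 alternative fits), and Eng, Tek and Cdh5 changed by -0.10, 0.44 and -0.12 without a call. In ΔG no endothelial marker was called by limma, with 1 at an unadjusted p below 0.05. The endothelial mean was 6.04 to 6.11 in WT and 5.93 to 6.08 in null.

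None of 10 macrophage markers was called by limma (1 at an unadjusted p below 0.05 in ΔG, none in null). Their mean was 5.53 to 6.60 in WT, 5.93 to 7.15 in ΔG and 5.73 to 6.05 in null, with Cd14, Itgam, Csf1r and Ptprc at -0.11, 0.06, -0.17 and -0.32 in null. In ΔG the changes of the 10 markers ran from 0.13 to 1.01 with a median of 0.45, all above 0 and none called, with those 4 genes at 0.31, 0.20, 0.65 and 0.13. The part of any of these cell types in the changes of Krt19, Cdh2 or the mesenchymal list was not tested.

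Of the 10 genes, Krt19, Vim and Cdh2 had the largest ranges over the 9 arrays (2.13, 1.08 and 0.63, against 0.38 for the median gene). Likeness to them was measured as the root mean square difference of log2 values centred on each gene's mean, over 9 arrays and 17019 candidate genes; as a description it carries no test. Nearest to Krt19 were Plek2 (0.185), which encodes a pleckstrin family protein, Ttc9 (0.205) and Coch (0.221), a secreted protein gene known from the inner ear. Plek2 read 5.32, 5.27 and 5.39 in WT, 5.62, 5.73 and 5.62 in ΔG and 6.44, 7.21 and 6.16 in null, with null replicate 2 highest and replicate 3 lowest, as for Krt19. Coch read 7.52, 7.59 and 6.33 in null against 5.62 to 5.66 in WT. Nearest to Vim were Ccng1 (0.088), Eef2 (0.090), the translation elongation factor gene, and Cd81 (0.106), all bright probe sets. Nearest to Cdh2 were Atg2a (0.034), Slc29a3 (0.035) and Pmp22 (0.043). On Cdh2 and its 3 nearest genes, replicate 2 was the highest array of every genotype.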

How the data were processed

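The authors deposited log2 values of Affymetrix Mouse Gene 1.0ST arrays made with RMA, which corrects background, normalises quantiles and summarises probes. BRB-ArrayTools is named in the series text, and RMA and affy in the submitters' processing notes. The sources used here do not name a version, an annotation or a genome build. Of 35512 probe sets, 21789 carried exactly 1 gene symbol in a platform annotation table, and 21698 of these matched RefSeq genes (GRCm38.p6, for names and order only) by gene ID. Where a gene had more than 1 probe set (999 genes), the one of highest mean stood for it; 19938 genes resulted.

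Arrays were grouped by labelled genotype. A single limma model (limma 3.58.1 under R 4.3.3) covered the 9 arrays, with genotype means, 6 residual and 5.242 prior degrees of freedom, eBayes, and Benjamini-Hochberg adjustment within each comparison at 0.05; the script was tested on simulated data. The number of arrays limits the precision. Alternatives changed one choice at a time (18 settings, 9 of them leaving out 1 array).

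All 10 genes were named, and from each list the 4 genes of lowest p in either comparison with WT (8 for the epithelial and mesenchymal lists), plus, for the other keratins, the 3 of highest mean and, for the 3 genes of largest range, the 3 of nearest pattern (predicted genes, clones and small RNAs left out); genes outside this rule are marked. The 10 genes and the lists were chosen with earlier results of these data known.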

Additional observations from a re-analysis of the deposited data

How the results depend on the processing

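No called value of the 10 genes changed sign in any of the 18 alternative settings; 25 of the 521 values under these settings did, none of them called with or without the setting, the largest with a size of 0.279 (Vim in null). Leaving out 1 array gave 62 to 252 genes called in ΔG against WT (162 with all arrays) and 762 to 2408 between ΔG and null (1737). With the Y-linked covariate 1580 genes were called in null against WT and 53 between ΔG and null; against the WT array of the same sex pattern 2010 were called in null (3678 with all WT arrays), a setting with fewer arrays. Of the 10 genes, 1 was called in null against WT in each of these settings (Krt19), 1 to 2 when 1 array was left out, and 0 between ΔG and null with the covariate. With the array number as a replicate block, 2 of the 10 genes were called between ΔG and null, Cdh2 (0.27, adjusted p = 0.033) joining Krt19, and 5 of 12 mesothelial markers in ΔG against WT (1 without the block). The deviations of same-numbered arrays of different genotypes correlated at r = -0.084 to 0.269, above 0.1 in 4 of 9 pairs. Those of different-numbered arrays correlated at -0.241 to 0.137, above 0.1 in 2 of 18 pairs. No label says that the number marks a litter, so it was not taken as a pairing in the main fit. The cause of these shifts was not tested. Genes of dim signal are limited by background, and 3 arrays per group limit all comparisons.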
